A study of Mus musculus with 8 samples.

Results

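OSKH 1 is 1 of 4 arrays of OSKH induced pluripotent stem cells (iPSCs) in a set of 8 mouse expression arrays, and it is described here by the genes on which it stood apart. Its value was set against OSKH 2, 3 and 4, against the 3 arrays of OSK iPSCs, which the series uses as its control group, and against 1 array of embryonic stem cells (ESCs). A feature, meaning a named gene or an unnamed transcript with 1 probe chosen for it, was kept where OSKH 1 lay at least 1 log2 unit above the highest, or at least 1 below the lowest, of the other 6 iPSC arrays. This held for 322 of 22685 features, of which 189 were higher on OSKH 1 (130 named genes) and 133 were lower (101 named genes). The features were thus chosen by the log2 values given below, which describe 1 array, with no test and no replicate.

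The cells carry the C57BL/6J strain label and were undifferentiated when collected, per the labels, and the ESC array is of a line labelled B6J-23. OSK is read here as the reprogramming factors Oct4, Sox2 and Klf4, and the H as H1foo, the linker histone of the oocyte, although the labels spell out neither. The labels give no time, dose or passage, and they leave unsaid if the replicate arrays come from different clones or from 1 culture. Each level is the log2 signal minus that array's own 75th percentile, so 0 is that percentile and a difference of 1 is a doubling of signal. A probe is called measured on an array where the scanner software marked it well above background, and a value below that mark carries no order.

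The genes that stood apart belong to programmes with well-studied roles. Cells that run short of amino acids, or whose endoplasmic reticulum holds unfolded protein, phosphorylate the initiation factor eIF2 and translate more Atf4, a transcription factor that pairs with C/EBP proteins and switches on Ddit3, Atf3, Trib3, Chac1 and other genes. Mouse pluripotent cells move between a naive state, marked by factors such as Esrrb, Klf2, Klf4 and Tbx3, and a formative state on the way to the germ layers. Metallothioneins bind zinc and copper and are transcribed when free zinc increases.

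OSKH 1 and OSKH 4 each had more features outside the range of the remaining iPSC arrays than any of the other 5. On OSKH 1, 0.833% of features lay above that range by 1 log2 unit and 0.586% below it. The same rule gave 267 higher and 86 lower features on OSKH 4, 75 and 28 on OSK 2, 41 and 27 on OSK 1, 12 and 8 on OSKH 3, 7 and 12 on OSK 3, and 2 and 14 on OSKH 2. Leaving out OSK 1 moved the counts most: without it the counts for OSKH 1 became 285 higher and 289 lower, and without OSKH 4 the lower count became 206. OSK 1 and OSKH 1 lay in the same column of the slide, and the part of that position in the result was not tested. Over all features OSKH 1 did not lean either way: 50.1% were above the mean of OSKH 2 to 4, the median difference was 0.000672, and 24.1% lay above the range of the other 6 and 24.9% below it by any amount. It measured 54.3% of probes, within the 51.4% to 59.0% of the 8 arrays, and 0 spots were saturated.

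**Figure D1:**
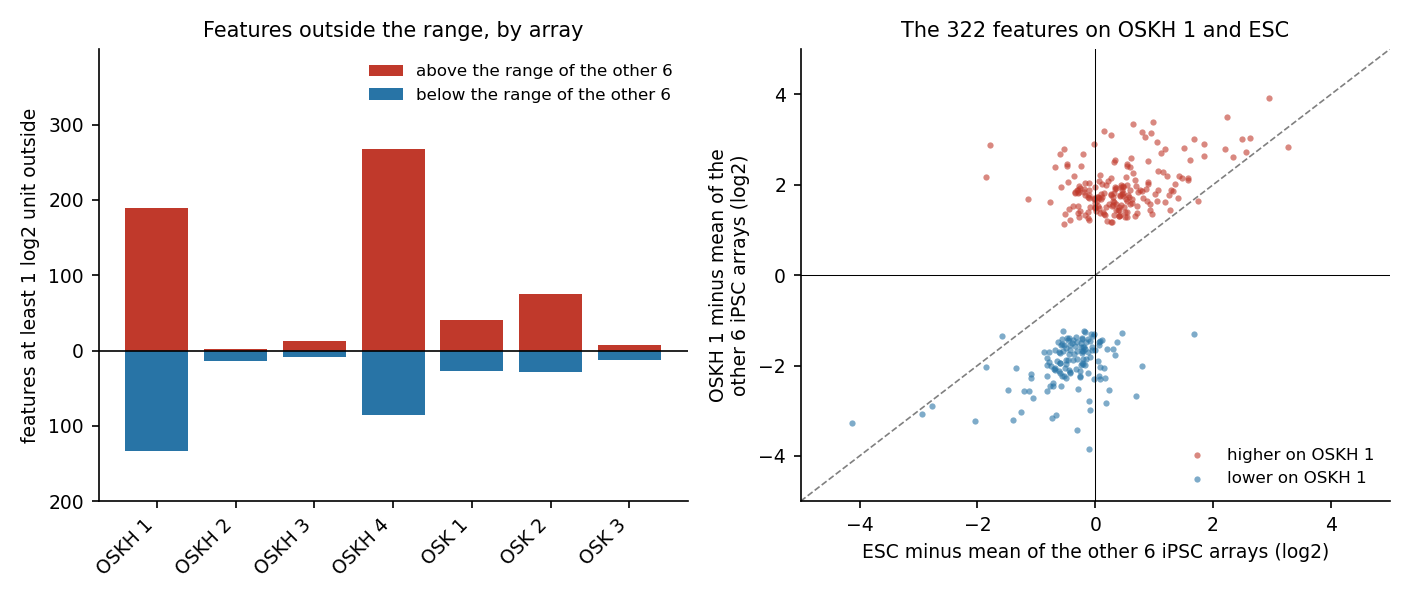
The left panel counts, for each of the 7 iPSC arrays, the features at least 1 log2 unit above (upward bars) or below (downward bars) the range of the other 6, and OSKH 1 has 189 and 133. The right panel plots each of the 322 features of OSKH 1 as its difference from the mean of the other 6 iPSC arrays against the same difference for ESC, with a dashed line where the 2 are equal.

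The largest named gap above the range belonged to Aqp3, a channel for water and glycerol. Aqp3 stood at 5.12 on OSKH 1, at 1.47, 1.91 and 1.83 on OSKH 2, 3 and 4, at 2.38, 2.13 and 1.80 on OSK 1, 2 and 3, and at 2.07 on ESC. OSKH 1 was thus 10.4-fold above the mean of OSKH 2 to 4, and the other 7 arrays lay together. Gpr143, a receptor of pigment cell organelles, stood at -0.55 on OSKH 1 and between -4.67 and -3.12 on the other 6, with ESC at -3.37.

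Genes of the Atf4 programme were among the higher ones, and they hold Chac1, Ddit3 and Atf3, which marked the array. Of 62 genes listed for the amino acid and unfolded protein response, 59 were measured well enough to enter, and 8 of these lay above the range by 1 log2 unit, where 0.833% of all features did. None lay below it by 1. The 8 were Chac1, Ddit3, Atf3, Trib3, Gdf15, Fgf21, Herpud1 and Adm2. Of the 59 genes, 48 were above the mean of OSKH 2 to 4 and 31 above the range by any amount (24.1% of all features were), with a median difference of 0.29.

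Ddit3 encodes CHOP, a transcription factor of prolonged stress. Ddit3 was at 1.29 on OSKH 1, at -1.87, -1.86 and -1.51 on OSKH 2, 3 and 4, at -1.49, -1.33 and -1.59 on OSK 1, 2 and 3, and at -1.63 on ESC. OSKH 1 was 8.19-fold above the mean of OSKH 2 to 4, whose SD was 0.21 (n = 3), and the 7 other arrays lay close together. Chac1 encodes an enzyme that breaks down glutathione. Chac1 was at 6.02 on OSKH 1, at 3.39, 3.13 and 2.82 on OSKH 2 to 4, at 2.98, 3.29 and 3.82 on OSK 1 to 3, and at 2.70 on ESC, a 7.52-fold difference from OSKH 2 to 4. Atf3, a transcription factor that Atf4 and Ddit3 act upon, was at 0.51 on OSKH 1, at -1.90, -1.71 and -1.85 on OSKH 2 to 4, at -2.55, -1.87 and -1.49 on OSK 1 to 3, and at -2.57 on ESC. In all 3 genes OSK arrays and the other OSKH arrays overlapped, and OSKH 1 alone was high.

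The secreted products of the programme were also high. Gdf15, a cytokine released by stressed cells, was at 1.58 on OSKH 1, at -1.27, -1.30 and -1.01 on OSKH 2 to 4, at -0.43, -0.56 and -0.71 on OSK 1 to 3, and at -1.37 on ESC. For Gdf15 the OSK arrays sat above OSKH 2 to 4, and OSKH 1 lay 2.01 above the highest of them. Fgf21, a metabolic hormone, was at -1.46 on OSKH 1 and at most -3.59 elsewhere, measured on 3 of the other 6 arrays and not on ESC. Adm2, a peptide related to calcitonin, was at -0.15 on OSKH 1, between -2.37 and -1.30 on the other 6 and at -2.99 on ESC.

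Trib3, a pseudokinase that binds Akt and dampens Atf4, was at 6.03 on OSKH 1, at 4.21, 4.13 and 3.93 on OSKH 2 to 4, at 4.25, 4.49 and 4.50 on OSK 1 to 3, and at 4.14 on ESC. Herpud1, a membrane protein of the pathway that removes misfolded proteins from the endoplasmic reticulum, was at 3.33 on OSKH 1, between 1.65 and 2.00 on the other 6, and at 1.50 on ESC. Vldlr, a lipoprotein receptor, and Nupr1, a small stress protein of chromatin, came nearest without meeting the rule, 0.95 and 0.87 above the range.

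**Figure D2:**
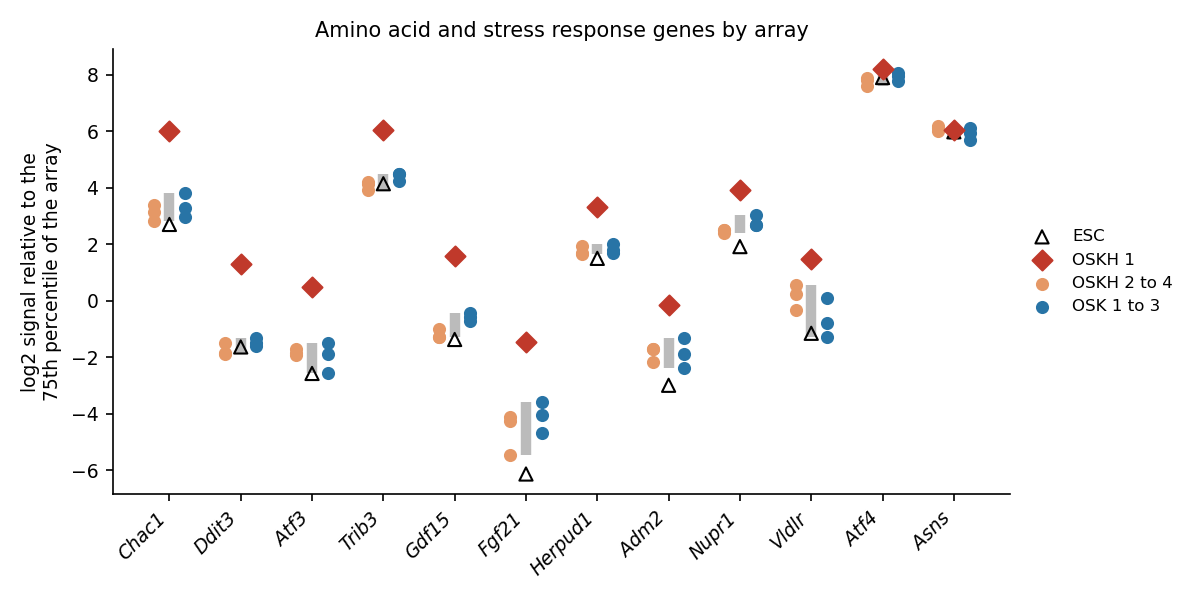
Log2 signal above the array's 75th percentile for 12 stress response genes, with OSKH 1 as a diamond, OSKH 2 to 4 and OSK 1 to 3 as circles left and right, ESC as a triangle and a grey bar for the range of the other 6 iPSC arrays. OSKH 1 lies above every other array for the first 10 genes and within or just above the range for Atf4 and Asns.

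The rest of the pathway lay closer to the range on OSKH 1. Atf4 itself was at 8.19, against 7.59 to 8.08 on the other 6 arrays, which puts OSKH 1 0.11 above the range. Asns, the asparagine synthetase that is a standard target of Atf4, was at 6.05 within a range of 5.68 to 6.17. Psat1 and Phgdh, enzymes of serine synthesis, were also inside the range, at 5.72 and 5.02. Sesn2, an inhibitor of growth signalling, lay 0.61 above the range, Eif2ak3, the kinase that senses unfolded protein, 0.44 above, and Ppp1r15a, the phosphatase subunit that reverses eIF2 phosphorylation, 0.34 above. Of 19 aminoacyl-tRNA synthetases none lay outside by 1, and their median difference was 0.06. Of 25 chaperones and folding enzymes of the endoplasmic reticulum none lay outside by 1. By less than that, 10 lay below the range and 2 above it, where 24.9% and 24.1% of all features did by any amount. The median difference of the 25 was -0.21. The 2 nearest to the threshold among them were Dnajb9, a co-chaperone, at 0.38 above the range, and Atf6, a sensor of unfolded protein, at 0.35 above.

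Promoter sequences were examined for the core of the C/EBP-ATF response element, through which Atf4 acts. The core was written TGATGNAA and sought on either strand between 250 bases before and 50 bases after the start of transcription, in promoters taken from RefSeq on build GRCm38.p6. A promoter was found for 106 of the 130 named genes that were higher on OSKH 1, and 15 of them (14.2%) held the core. It was in 0 of 73 promoters of the lower genes, in 2.81% of the promoters of all named genes tested and in 3.97% of all promoters in the table. Among the stress genes listed, 5 of the 8 that were higher held it (Chac1, Atf3, Fgf21, Herpud1 and Trib3), as did 8 of 39 with a promoter that were not outside the range. The cyclic AMP response element TGACGTCA was in 1 of 106 promoters of higher genes, 1 of 73 of lower genes and 3.41% of those tested. The other promoters of higher genes with the core were those of Gadd45g, Hrk, Arid5b, Fabp3, Traf1, Slamf9, Cyb5r2, H4c17, Btg1c and 4930444M15Rik.

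In Chac1, Atf3, Fgf21 and Herpud1 the match before the start read TTGCATCA on the strand of the gene, which is the core on the opposite strand. A stretch of 60 bases around it is printed for each, because these 4 carry the core and a large gap, with the match in capitals and the strand of the gene running 5′ to 3′. The stretches are chr2:119351023-119351082 (plus strand) for Chac1, chr1:191183410-191183469 (minus strand) for Atf3, chr7:45615596-45615655 (minus strand) for Fgf21 and chr8:94386291-94386350 (plus strand) for Herpud1, all on GRCm38.p6 and upstream of the start. The match begins 193, 110, 139 and 112 bases before the start in that order.
Chac1: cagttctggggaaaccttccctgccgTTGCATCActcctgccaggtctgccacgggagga
Atf3: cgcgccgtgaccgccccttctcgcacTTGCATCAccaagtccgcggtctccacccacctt
Fgf21: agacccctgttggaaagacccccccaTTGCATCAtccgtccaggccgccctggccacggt
Herpud1: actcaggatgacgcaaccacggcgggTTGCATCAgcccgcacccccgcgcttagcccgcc
A match says only that these letters stand in the window.

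A second group held transcription factors of the naive state. Of 21 naive genes measured, 6 lay above the range by 1 log2 unit (Tbx3, Klf5, Klf2, Nr0b1, Esrrb and Klf4), 18 lay above it by some amount, where 0.833% and 24.1% of all features did, and 19 were above the mean of OSKH 2 to 4, with a median difference of 1.24. Tbx3, a T-box factor, was at 3.95 on OSKH 1, at 0.57, 1.35 and 2.36 on OSKH 2, 3 and 4, at 1.84, 1.64 and 1.26 on OSK 1, 2 and 3, and at 2.04 on ESC. Esrrb, an orphan nuclear receptor, was at 6.86 on OSKH 1, at 4.64, 5.06 and 5.46 on OSKH 2 to 4, at 5.76, 5.10 and 4.95 on OSK 1 to 3, and at 5.97 on ESC. ESC was above all other 6 iPSC arrays for Esrrb and below OSKH 1 for both genes.

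The Krüppel-like factors of this state were high together. Klf2 stood at 5.29 on OSKH 1, between 3.08 and 4.06 on the other 6 arrays and at 4.19 on ESC. Klf5 was at 4.75 against 2.74 to 3.52, with ESC at 3.59, and Klf4 at 3.69 against 1.69 to 2.65, with ESC at 3.52. The whole family is a list put together after these values had been seen. Of its 16 measured members, 5 met the rule, where 0.833% of all features did. Klf2, Klf4 and Klf5 were already counted among the naive genes, and Klf10 and Klf15 were the other 2. With normexp background correction 4 met the rule, and with a percentile over probes measured on all arrays 3 did. Klf10, a factor of early growth arrest, was at 3.22 against 1.71 to 1.94, and Klf15, a metabolic regulator, at -1.13 against -3.53 to -2.14. Klf3, Klf7, Klf13, Klf16 and Klf17 were inside the range.

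Nr0b1, a nuclear receptor partner of Nanog, was at 4.69 on OSKH 1, between 2.48 and 3.52 on the other 6 arrays and at 4.09 on ESC. Naive genes that were above the range by less than 1 included Tcl1, a co-activator of Akt (0.80), Tfcp2l1, a target of LIF signalling (0.60), and Prdm14, a repressor of differentiation (0.34). Gbx2, a homeobox gene of the naive state, went the other way, at 0.54 against 0.81 to 3.13, and Nodal, a TGF-beta ligand, was at 3.47 against 3.96 to 4.33. Genes downstream of the cytokine LIF were also above OSKH 2 to 4 in 13 of 13 cases (median difference 0.79). Gadd45g, a stress and LIF-responsive gene, met the rule at 6.01 against 3.18 to 4.82, as did Klf4, while Socs3, the feedback inhibitor of the pathway, lay 0.51 above the range.

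The core factors did not stand apart by the rule. Pou5f1, which encodes Oct4, was at 6.23 on OSKH 1, within 6.09 to 6.27 on the other 6 arrays. Nanog was at 2.20, below the 2.28 of OSKH 4, and Sox2 at 3.61, 0.28 above the range. H1f8 (formerly H1foo) stood at -1.24, inside a range of -1.70 to -1.16, so the array did not stand apart in the factor that gives its group its name; whether the probe sees a transgene was not examined. None of 10 core pluripotency genes met the rule, and their median difference was 0.28. By any amount, 5 of the 10 lay above the range and none below it, where 24.1% and 24.9% of all features did. Of the 10, 8 were above the mean of OSKH 2 to 4, where 50.1% of all features were.

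Formative genes were mostly lower on OSKH 1 than the mean of OSKH 2 to 4, in 14 of 16 cases, with a median difference of -0.77. None was below the range of the other 6 by 1. The mean of the list was 3.14 on OSKH 1, 3.59, 3.89 and 3.76 on OSKH 2, 3 and 4, and 2.95, 3.01 and 3.58 on OSK 1, 2 and 3. OSK 1 and OSK 2 were thus lower than OSKH 1. Sall2, a zinc finger factor, had a gap of -0.87 to that range, and Dnmt3a, a de novo DNA methyltransferase, of -0.86. Fgf5, the marker of the formative epiblast, was at 0.99, below the 1.94, 2.73 and 3.45 of OSKH 2, 3 and 4 and above 2 of 3 OSK arrays (-0.60, 0.15 and 1.99). Grhl2, an epithelial factor of the same list, was the only 1 to meet the rule, at 3.42 against 1.57 to 2.24. Another probe of Grhl2 lay 0.49 above the range and did not meet it.

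Some zinc-handling genes were higher, from a list put together after its values had been seen. Mt1, a metallothionein, was at 8.84 on OSKH 1, at 6.34, 6.77 and 7.13 on OSKH 2, 3 and 4, at 7.46, 7.24 and 6.80 on OSK 1, 2 and 3, and at 8.25 on ESC. Mt2, its neighbour and close relative, was at 8.91 on OSKH 1 against 6.36 to 7.51, with ESC at 8.37, a 4.46-fold difference from OSKH 2 to 4. ESC was also above the 6 other iPSC arrays for both metallothioneins. Slc30a1, which exports zinc from the cell, was at 1.35 on OSKH 1, between -0.66 and -0.27 on the other 6 and at -0.02 on ESC. Slc30a2, which moves zinc into vesicles, was at -1.45 against -2.92 to -2.47. These were 4 of 23 measured genes (3 with normexp background correction), where 0.833% of all features met the rule on this side. Another 8 of the 23 lay below the range by less than 1, where 24.9% of all features were below it by any amount. Among them were the importers Slc39a10 (gap -0.44) and Slc39a6 (gap -0.37). The median difference of the 23 genes was -0.22. The metal response element core, sought as TGCACNC or TGCGCNC on either strand after the values had been seen, was in 41 of 106 promoters of higher genes, 28 of 73 of lower genes and 39.3% of those tested.

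**Figure D3:**
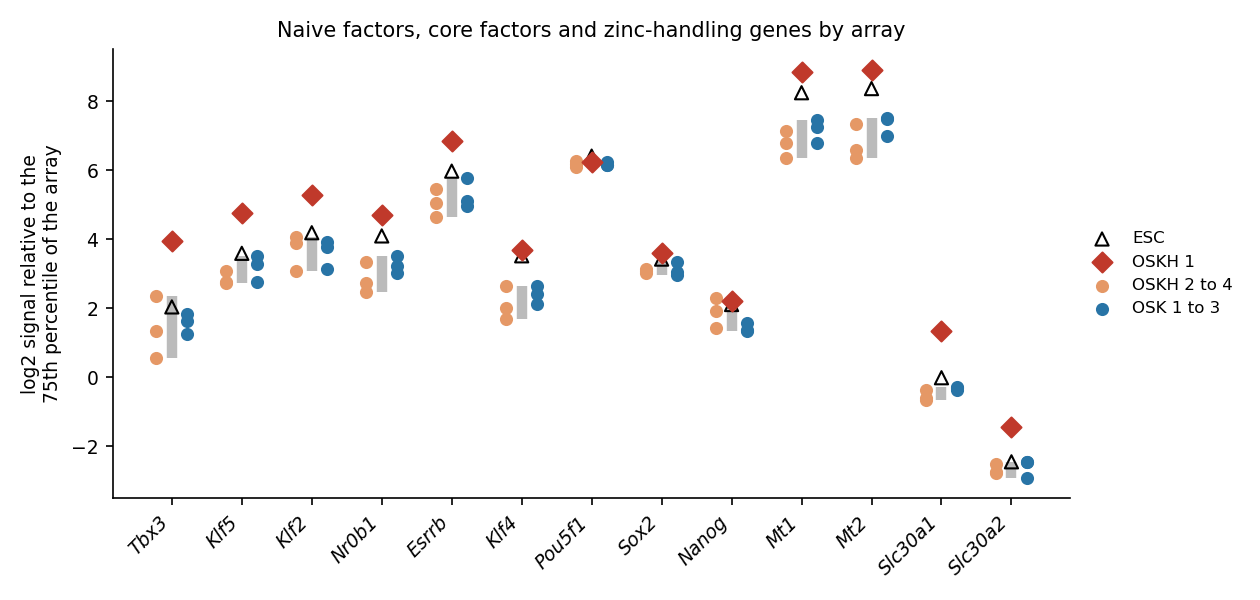
Log2 signal above the array's 75th percentile for 6 naive factors, 3 core factors and 4 zinc-handling genes, with OSKH 1 as a diamond, OSKH 2 to 4 and OSK 1 to 3 as circles left and right, ESC as a triangle and a grey bar for the range of the other 6 iPSC arrays. OSKH 1 is above the bar for the naive and zinc genes and within it for Pou5f1 and Nanog.

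Macrophage genes made up many of the largest gaps. In a list of 50 put together after these values had been seen, 32 were measured well enough to enter. Of these, 21 lay above the range by 1 log2 unit and 28 by some amount, where 0.833% and 24.1% of all features did. The median difference was 2.18. The filter on dim probes also counted OSKH 1 and ESC, where many of these genes were high. With ESC left out of it, 2 of the 32 would not have passed, and Lilrb4a passed with OSKH 1, ESC and 1 other array. With normexp background correction 14 met the rule and the median was 1.19, and part of the values behind the median were not well above background. Lyz2, the lysozyme of macrophages, was at -0.82 on OSKH 1, at -3.76, -3.996 and -3.80 on OSKH 2, 3 and 4, at -3.91, -4.12 and -3.52 on OSK 1, 2 and 3, and at -1.23 on ESC. Ctss, a lysosomal protease of antigen-presenting cells, was at -0.23 on OSKH 1 against -3.35 to -2.67, with ESC at -0.80. In both genes OSKH 1 and ESC were high together and the other 6 arrays lay apart from them.

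The same held for chemokines. Ccl6 was at 0.65 on OSKH 1, at -1.67, -2.22 and -1.52 on OSKH 2 to 4, at -3.55, -2.26 and -1.95 on OSK 1 to 3, and at 1.08 on ESC, the highest array. Ccl9 was at -0.54 on OSKH 1, between -4.10 and -2.64 on the other 6 and at -1.35 on ESC. Wfdc17, a secreted inhibitor made by activated macrophages, was at -0.17 on OSKH 1, -1.13 on ESC and -5.71 to -2.79 elsewhere. It was measured on 4 of the other 6 iPSC arrays. Receptors and adaptors followed: Clec4n, a C-type lectin, was at -0.57 against -3.82 to -2.81, Tyrobp, an adaptor of myeloid receptors, at -1.79 against -4.49 to -3.49, and Lilrb4a, an inhibitory receptor measured on 1 of the other 6 arrays, at -0.98 against -4.35 to -3.38. Marco, a scavenger receptor measured on 4 of the other 6 arrays, was at 0.22 on OSKH 1. OSK 1 was next at -0.81, and the remaining 5 iPSC arrays lay between -4.30 and -2.56. Acod1, the enzyme that makes itaconate, was at -1.70 against -6.34 to -3.40.

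Other genes of the list did not follow. Csf1r, the receptor for the main macrophage growth factor, was at 0.78 within 0.59 to 0.88, Coro1a, an actin regulator of leukocytes, at 1.26 within 1.18 to 2.24, and Mertk, a receptor for dying cells, at -2.60 below -2.22 to -1.21. Ptprc, the pan-leukocyte surface marker CD45, and Spi1, the transcription factor PU.1, were not well above background on any array, nor were C1qc, Cd53, Cx3cr1, Cybb, Tnf and Cd86. Fcgr1, an antibody receptor, was measured on OSKH 2 and OSKH 3 and not on OSKH 1. A further 7 genes of the list that too few arrays measured (Aif1, C1qa, Ccl4, Fcgr3, Il1b, Plek and Msr1) were measured on OSKH 1 and on no other iPSC array. Some of these were dim on OSKH 1, with Aif1 at -4.23, C1qa at -4.20 and Msr1 at -4.40. The dimmest signal marked well above background was -4.78 on OSKH 1 and ran from -4.82 on OSK 3 to -4.05 on OSKH 4. The part of these unequal limits in the counts of measured genes was not tested. In all, OSKH 1 measured 39 of the 50 genes, ESC 34 and the other 6 iPSC arrays 18 to 33, and the summed linear level of the 32 genes was 37.0 on OSKH 1, 27.2 on ESC and 19.19 to 22.2 on the others. Fewer cells of a type and less RNA per cell cannot be told apart in these bulk samples, and the part of other cell types in the result was not tested. Fibroblast genes did not stand apart with them: of 20 measured, 0 lay above the range, and their summed level was 126 on OSKH 1 against 99.8 to 145 on the other 6 arrays.

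**Figure D4:**
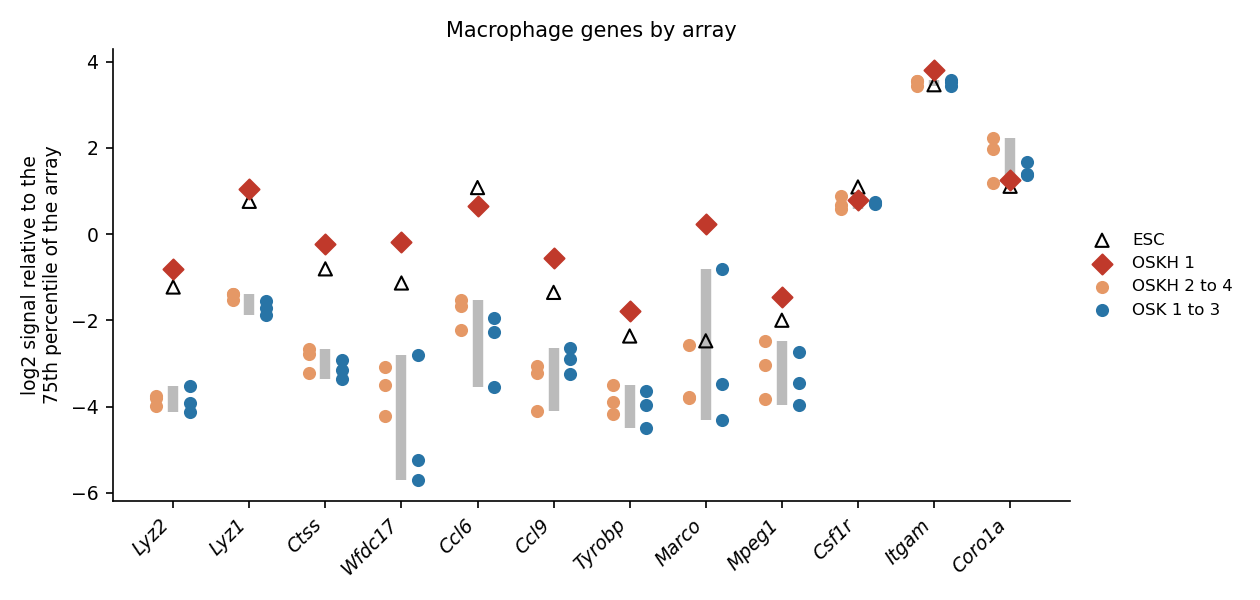
Log2 signal above the array's 75th percentile for 12 macrophage genes, with OSKH 1 as a diamond, OSKH 2 to 4 and OSK 1 to 3 as circles left and right, ESC as a triangle and a grey bar for the range of the other 6 iPSC arrays. OSKH 1 and ESC lie above the bar for Lyz2 through Tyrobp, and OSKH 1 lies inside it for Csf1r and Coro1a.

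Txnip, which binds thioredoxin and limits glucose uptake, was at 3.85 on OSKH 1, at 1.91, 1.84 and 1.72 on OSKH 2, 3 and 4, at 2.14, 2.16 and 2.08 on OSK 1, 2 and 3, and at 2.56 on ESC. Pik3ip1, an inhibitor of phosphoinositide 3-kinase, was at 1.05 against -1.27 to -0.28, Btg1, an antiproliferative gene, at 3.94 against 2.29 to 2.70, and Bcl6, a transcriptional repressor, at -0.54 against -3.07 to -2.17. These belong with Klf2 to a list of genes under the FoxO factors, put together after the values had been seen. Of 22 measured, 5 met the rule, where 0.833% of all features did. By any amount, 9 lay above the range and 4 below it, where 24.1% and 24.9% of all features did. Of the 22, 14 were above the mean of OSKH 2 to 4, where 50.1% of all features were. The median difference was 0.13. Another probe of Btg1 lay only 0.18 above the range and another of Txnip 0.86 above, so neither met the rule. Of the listed cell cycle inhibitors and proliferation genes none lay outside the range by 1. Hrk, a pro-apoptotic BH3-only gene, was at 1.08 against -1.90 to -0.88. Genes under p53 were lower than the mean of OSKH 2 to 4 in 16 of 24 cases and below the range in 9, where 24.9% of all features were, with gaps of -0.69 for Cdkn1a and -0.64 for Plk2, and Gadd45g was the only 1 of them to lie above the range by 1.

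Some repressors of the circadian clock were high as well. Ciart was at 0.63 on OSKH 1, at -1.07, -1.16 and -1.22 on OSKH 2, 3 and 4, at -1.13, -1.12 and -0.87 on OSK 1, 2 and 3, and at -1.06 on ESC. Nr1d1, which encodes REV-ERB alpha, was at -0.62 against -2.10 to -1.74. Bhlhe40 lay at the threshold, at 0.51 against -1.38 to -0.49. Of 13 clock genes measured, again listed after the values had been seen, these 3 met the rule, where 0.833% of all features did. With normexp 1 of them met it, and with the authors' deposited values 2 did. The list had 8 members above the range by any amount and 1 below it, where 24.1% and 24.9% of all features were. The median difference was 0.75 (0.40 with normexp). Cry1 and Clock were inside the range, and Cry2 had a gap of -0.15.

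Genes of other lineages were high on OSKH 1 in single cases. Sox7, of primitive endoderm, was at -1.69 against -5.41 to -3.47, measured on 3 of the other 6 arrays. Gata2, of trophectoderm and blood, was at -1.30 against -4.35 to -3.06. Of 10 primitive endoderm genes measured, 7 were below the mean of OSKH 2 to 4, with a median difference of -0.68. By any amount, 4 of the 10 were below the range, where 24.9% of all features were. Of 14 trophectoderm genes 8 were above that mean, with a median difference of 0.16. With normexp background correction 0 genes of either list met the rule. Ifi27, an interferon-induced gene, was at 5.56 on OSKH 1 with OSKH 3 next at 4.55 and OSKH 4 lowest at 1.50. Of 29 interferon genes measured it was the only 1 to meet the rule, and their median difference was 0.03.

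Among the 59 higher features without a gene name, 28 carried only the coordinates of an intergenic transcript, on build mm9 per the files. Of 2907 such features tested, 0.963% met the rule, against 0.833% of all. They included 3 that lie near each other on chromosome 6, at chr6:31007184-31007725, chr6:31078802-31079644 and chr6:31115515-31168433, with gaps of 1.70, 1.50 and 1.51. What they are transcribed from was not examined.

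Features below the range had their largest gaps among dim probes. Of the 133, OSKH 1 measured 73; the others were not well above background on it, so their difference is only a bound. Among named genes measured on 5 or more of the other 6 arrays, Slc35f1, a putative solute carrier, had the deepest gap: it was not well above background on OSKH 1, was at -2.32, -1.96 and -2.25 on OSKH 2, 3 and 4 and -4.11, -3.01 and -1.93 on OSK 1, 2 and 3, and was at least 6.09-fold lower than on OSKH 2 to 4. Kif12, a kinesin, was at least 4.18-fold lower and Fabp7, a fatty acid carrier of neural progenitors, at least 13.0-fold lower. Here "at least" takes, for OSKH 1, its own signal or the dimmest that the array marked well above background, whichever was higher.

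Of the lower genes that OSKH 1 measured, Arhgef17, a guanine nucleotide exchange factor, had the largest gap. Arhgef17 was at -3.80 on OSKH 1, at -1.15, -1.30 and -0.997 on OSKH 2, 3 and 4, at -1.65, -1.48 and -1.44 on OSK 1, 2 and 3, and at -2.10 on ESC, a 6.27-fold difference from OSKH 2 to 4. Mrc2, a collagen receptor, was at -3.997 against -2.08 to -1.66, although another probe of the gene lay inside the range. Rasl11a, a small GTPase, was at -3.88 against -2.20 to -1.39, Cacna1g, a calcium channel, at -4.05 against -2.46 to -1.71, and Fbn2, a fibrillin of the extracellular matrix, at -3.71 against -2.13 to -1.22. Cacna1g and Fbn2 each had another probe that was also below the range by 1.

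Some signalling genes of the differentiating embryo were among the lower ones. Of 24 Wnt, TGF-beta and FGF pathway genes measured, 13 were above the mean of OSKH 2 to 4. By any amount, 8 of the 24 lay above the range and 5 below it, where 24.1% and 24.9% of all features did. Their median difference was 0.11, and Fgf8 was the only 1 to meet the rule. Notch3, a receptor, was at 2.15 on OSKH 1, at 4.20, 4.18 and 3.64 on OSKH 2, 3 and 4, at 4.00, 4.10 and 4.31 on OSK 1, 2 and 3, and at 3.29 on ESC. Dll3, an inhibitory ligand of the same pathway, was at 0.22 against 1.25 to 2.04, and another probe of Dll3 had a gap of -0.82. Hes5, a target, was at -3.31 against -2.33 to -1.39, just inside the threshold. Dll1, an activating ligand, was higher, at 0.34 against -2.40 to -0.69. Of 10 Frizzled receptors for Wnt, 3 met the rule, Fzd1 at -3.68 against -2.63 to -1.20, Fzd8 at -3.89 against -2.89 to -0.97 and Fzd10 at 0.79 against 1.84 to 2.40, and 7 of the 10 were below the range by some amount, where 0.586% and 24.9% of all features were; with normexp background correction 0 Frizzled genes met the rule. Of 16 Notch genes 1 was higher and 2 were lower by the rule (0 and 1 with normexp), where 0.833% and 0.586% of all features were. The Notch and Frizzled lists were put together after the values had been seen. Prickle1, of the planar polarity branch of Wnt signalling, was at 1.45 on OSKH 1, at 4.05, 3.87 and 4.08 on OSKH 2 to 4, at 2.73, 3.13 and 4.25 on OSK 1 to 3, and at 3.12 on ESC.

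Factors of the germ layers were among the lower genes too. Fgf8, a growth factor of gastrulation, was at -0.97 on OSKH 1, at 1.26, 1.98 and 3.65 on OSKH 2, 3 and 4, at 0.19, 0.64 and 1.22 on OSK 1, 2 and 3, and at 0.90 on ESC. Another probe of Fgf8 had a gap of -0.76 and did not meet the rule. Of 15 mesendoderm genes 12 were below the mean of OSKH 2 to 4, and Fgf8 was the only 1 to meet the rule. Their mean level was 0.89 on OSKH 4 and between -2.99 and -2.10 on the other 5 iPSC arrays, with OSKH 1 at -2.80, so OSKH 1 was not the lowest. Sox3, an early neural factor, was at 0.91 on OSKH 1, at 2.85, 2.82 and 2.63 on OSKH 2 to 4, at 2.04, 2.66 and 3.37 on OSK 1 to 3, and at 2.64 on ESC. Satb1, a chromatin organiser, was at -0.72 against 0.60 to 1.58, and Hoxa2, a homeobox gene, was at least 3.07-fold lower than on OSKH 2 to 4 and not well above background on OSKH 1.

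**Figure D5:**
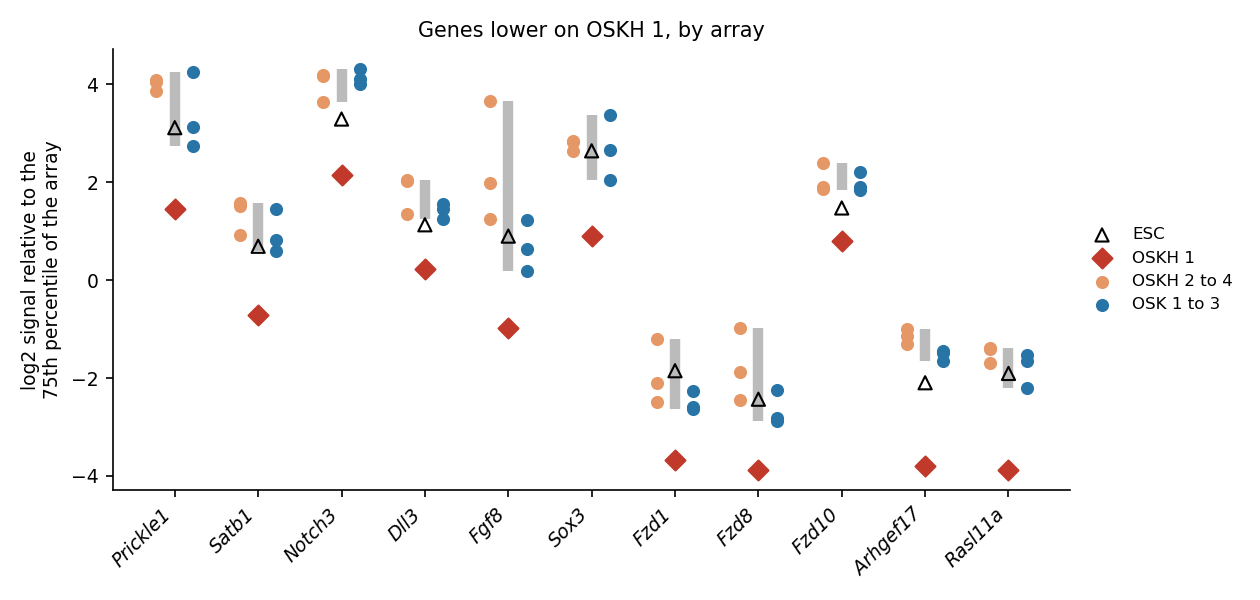
Log2 signal above the array's 75th percentile for 11 genes that were lower on OSKH 1, with OSKH 1 as a diamond, OSKH 2 to 4 and OSK 1 to 3 as circles left and right, ESC as a triangle and a grey bar for the range of the other 6 iPSC arrays. All 11 were measured on OSKH 1, and OSKH 1 lies at least 1 log2 unit below every bar.

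The lower count rested on the background correction more than the higher one. With normexp background correction of the median spot signals, 17 features were below the range by 1 log2 unit and 101 above it, so that 85.6% of the features outside were higher, against 58.7%. Of the genes named, Arhgef17, Fgf8 and Sox3 kept a gap of 1 below the range under normexp (-1.17, -1.04 and -1.06), while Slc35f1 was at -0.51, Kif12 at -0.40 and Fzd8 at -0.31. The gaps of Chac1, Ddit3 and Atf3 were then 2.23, 2.23 and 1.61.

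Cholesterol synthesis genes were lower by a small amount as a whole. Of 22 measured, 22 were below the mean of OSKH 2 to 4 and 17 below the range of the other 6, where 24.9% of all features were below it, but none by 1 log2 unit. The median difference was -0.48. Hmgcs1, an early enzyme of the pathway, was at 5.60 against 5.96 to 6.38. Class I histocompatibility genes were below the mean of OSKH 2 to 4 in 13 of 14 cases, with a median difference of -0.69. The OSK arrays were low as well. The mean of the list was 0.67 on OSKH 1, 0.77, 0.69 and 1.04 on OSK 1, 2 and 3, and 1.50, 1.64 and 1.40 on OSKH 2, 3 and 4. Of the 14, 6 were below the range of all 6, where 24.9% of all features were.

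The ESC array was no part of the range that chose the features, but it counted in the filter on dim probes, through which 6 higher and 2 lower features passed only with its help. It is therefore described over features that 3 or more of the 7 iPSC arrays measured, a restriction chosen after the data were seen. ESC was above the range of the other 6 iPSC arrays in 75 of 183 higher features (41.0%) and below it in 15, and over all features it was above in 23.5%. It was below the range in 52 of 131 lower features (39.7%) and above it in 3, and over all features it was below in 11.6%. Without that restriction, ESC lay outside by 1 log2 unit on the side of OSKH 1 in 13 higher and 6 lower features, and it reached or passed OSKH 1 in 2 of each. ESC was above the range for 9 of 21 naive genes and for 7 of 59 stress response genes, where it was below for 14. It was above for 21 of 30 macrophage genes, a list put together after the values had been seen.

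Other probes of the same genes gave a check within the array. Of the higher genes 13 had another measured probe, and 15 of 15 such probes were above the range, 5 of them by 1. Of the lower genes 18 had another, and 15 of 19 such probes were below the range, 8 of them by 1. A further 260 features were measured on OSKH 1 and on no other iPSC array, and 22 of these exceeded by 1 log2 unit the highest bound of the other 6. The largest was Tmem211, at least 8.87-fold above OSKH 2 to 4, and Crebrf, a regulator linked to the unfolded protein response, was at least 3.09-fold above.

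The difference of the group means is given with and without OSKH 1; for features chosen because OSKH 1 was extreme, leaving it out must move that difference, so the values show only by how much. Over the 189 higher features the median difference of OSKH from OSK was 0.37 with OSKH 1 and -0.14 without it, and over the 133 lower features -0.29 with it and 0.18 without it. The difference for Chac1 was 0.48 with OSKH 1 and -0.25 without, and for Ddit3 0.48 and -0.28. Atf3 kept its sign, at 0.73 and 0.15. For Fgf8 the difference was 0.79 with OSKH 1 and 1.61 without.

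Of the 33 gene lists that were not added after the values were seen, 18 had no member outside the range by 1, among them those for heat shock, proliferation, glycolysis and hypoxia. Just outside the threshold on the higher side were Elovl7, Fbxw10 and Bhlhe40, each 1.00 above the range, and just inside it AU015836, Cdk20 and Neat1 at 0.99, 0.99 and 0.98. On the lower side Pcdhac2, Inka1 and Fzd8 were just outside at -1.01, -1.01 and -1.001, and Mkx, Cadm3 and Soga1 just inside, each at -0.99.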

How the data were processed

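RNA of 8 samples was hybridised to one-colour Agilent mouse arrays on 1 slide. Per the file headers, Feature Extraction 11.5.1.1 wrote the deposited processed signal as an intensity, with the background already subtracted, and the deposited flags mark saturated and well above background spots. The authors' deposited value table holds log2 values that, for at least 99.7% of probes on each array, lie within 0.01 of the log2 signal minus a constant. Log2 processed signals were set relative to the 75th percentile of each array, spots of a probe were averaged, and the probe with the highest mean stood for a gene. Of 55681 probes, 27650 were named by accession through the RefSeq table. A probe entered the rule where 3 or more of the 8 arrays measured it, and the rule was tested on simulated data. The number of arrays limits the precision.

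The members and 33 gene lists were chosen with earlier results of these data known, and 7 lists were added after the values were seen. Named genes were Chac1, Ddit3 and Atf3, the 15 largest gaps each way, list members that met the rule, those nearest the threshold, and Pou5f1, Sox2, Klf4, Nanog and H1f8; other names were picked after their values were seen. Tools were R 4.3.3 with limma 3.58.1 and Python 3.11.15 with numpy 2.4.6, pandas 2.3.3 and matplotlib 3.10.9.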

Additional observations from a re-analysis of the deposited data

Results flagged for a closer look

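In a group of 4 arrays, 1 array was far from the other 3 by Dixon's ratio (the gap of the extreme array over the range of the group, above its 95% critical value) for 24 of 73 named genes, and in all 24 it was OSKH 1. Most of these genes were chosen because OSKH 1 was extreme, so the choice itself favours such ratios and they only describe the genes; the rate of about 1 in 20 groups that chance gives holds for genes not chosen this way. Among stress genes the ratio was 0.884 for Ddit3, 0.92 for Atf3, 0.900 for Gdf15, 0.865 for Trib3, 0.833 for Herpud1 and 0.918 for Nupr1. Among other higher genes it was 0.877 for Aqp3, 0.927 for Lyz2, 0.94 for Lyz1, 0.836 for Klf5, 0.892 for Cdk20 and 0.898 for Neat1. Among lower genes it was 0.921 for Slc35f1, 0.961 for Kif12, 0.892 for Arhgef17, 0.832 for Inka2, 0.874 for Mrc2, 0.883 for Arhgap18, 0.918 for Cyyr1, 0.855 for Lbhd2, 0.875 for Rasl11a, 0.891 for Sox3, 0.85 for Pcdhac2 and 0.843 for Mkx.

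Of 40 list means, 4 had a ratio above the same value. The circadian and Klf lists were put together after the values of OSKH 1 had been seen, so their ratios only describe them. OSKH 1 was high for circadian genes (0.965) and the Klf family (0.853) and low for genes under p53 (0.854), and OSKH 4 was high for fibroblast genes (0.909). The p53 ratio came with a small difference: the mean was 1.87 on OSKH 1 and 1.97, 1.96 and 1.96 on OSKH 2, 3 and 4.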

How the results depend on the processing

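No paired analysis was possible because the results come from no test. The counts for OSKH 1 were 189 higher and 133 lower features, with 8 stress genes higher. Normexp on the median spot signal, chosen after the files were seen because they hold no mean signal, gave 101 and 17. Requiring measurement on all 8 arrays gave 73 lower, and no filter gave 317 higher. A gap of 0.5 gave 822 and 762, and a gap of 2 gave 20, 8 and 4 stress genes. A reference of OSKH 2 to 4 alone gave 437 and 515, and slide row 1 alone 684 and 825; a smaller reference has a narrower range. Leaving out 1 array gave 194 to 285 higher, 138 to 289 lower and 8 to 10 stress genes. Scaling to array medians put the higher share at 64.4%, and a percentile over probes measured on all arrays at 50.3%, against 58.7%. With ESC in the reference the gap of Ccl6 reversed to -0.429, since ESC was the highest array. Under normexp 34 of 57 named genes outside by 1 were still outside by 1, and 14 macrophage, 1 circadian and 0 Frizzled genes met the rule, against 21, 3 and 3. Dim probes limit the lower genes most, since values near background carry no order. The cause of the changes under normexp and under no filter was not tested.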
